A study of Mus musculus with 6 samples.

Results

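The 10 genes followed here serve bile duct secretion and the bile duct cell's cilium, and were read in 6 mouse liver tumours, each hybridised to its own 1-colour Agilent array. They are Sctr, Cftr, Kcne3, Slc4a2 and Aqp1 on the transport side and Pkd2, Pkhd1, Cys1, Bicc1 and Dcdc2a on the cilium and polycystic side. The accessions of the array's probes assigned 14 of 56605 probes to these 10 genes, and all 10 entered the test among 27412 features. The tumours are hepatocellular carcinomas (HCC) of C57BL/6 mice in 3 groups of 2. Epcam-derived HCC with CLC and Epcam-derived HCC without CLC arose in tamoxifen-treated Epcam-AID mice that ate a diet with 0.1% DDC for 8 months, and Albumin-derived HCC without CLC arose in Alb-AID mice killed at 90 weeks, for which the labels name neither diet nor tamoxifen. The labels do not expand CLC, AID or DDC. In liver pathology CLC usually stands for cholangiolocellular carcinoma, a tumour of small ductule-like cells, AID usually stands for a mutation-causing DNA deaminase, and DDC is a diet chemical known to provoke ductular reactions. Each mouse line is named for the gene thought to mark the cell of origin, and the labels give neither the transgene's construction nor the animals' sex. RNA came from whole frozen tumour, so fewer cells of a type and less RNA per cell cannot be told apart. Nothing in the labels says whether the 2 tumours of a group came from separate animals, and p-values measure the spread between these samples.

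Bile duct cells, or cholangiocytes, turn the bile made by hepatocytes into a watery, alkaline fluid. Secretin binds its receptor, encoded by Sctr, and raises cyclic AMP, which opens the chloride channel Cftr; chloride that has left the cell is taken back in exchange for bicarbonate by the anion exchanger Slc4a2 (also called AE2), and water follows through the channel Aqp1. Each cholangiocyte also carries a primary cilium that senses flow and osmolality, and loss of several ciliary proteins in mice or humans gives cystic bile ducts and kidneys. Hepatocytes have little of this machinery and normally lack a primary cilium.

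RefSeq promoters on GRCm38.p6 were matched for 8 of the 10 genes, giving 10 promoters because Slc4a2 and Kcne3 have 2 each, and none was matched for Sctr or Bicc1. The 250 bases before the start were searched on both strands for GTTAAT, a half-site of HNF1 factors, which are known regulators of Pkhd1 in kidney and bile duct, and for GTTGCC, a half-site of the X-box that RFX factors bind at many ciliary genes. The 2 motifs do not overlap each other in these promoters. GTTAAT was present in 2 of the 10 promoters, those of Pkhd1 and Dcdc2a, where it begins 79 and 77 bases before the start, and in 6.43% of all 32851 promoters. GTTGCC was present in 3 of the 10, those of Slc4a2, Aqp1 and Kcne3, and in 10.4% of all promoters; neither set of letters occurs in this window of Cys1. The promoters of 3 genes are shown because Pkhd1 and Dcdc2a share the HNF1 half-site, in capitals, while Cys1, which had the largest difference between the 2 groups without CLC, has neither motif.
Pkhd1 promoter, chr1:20618058-20618307, - strand: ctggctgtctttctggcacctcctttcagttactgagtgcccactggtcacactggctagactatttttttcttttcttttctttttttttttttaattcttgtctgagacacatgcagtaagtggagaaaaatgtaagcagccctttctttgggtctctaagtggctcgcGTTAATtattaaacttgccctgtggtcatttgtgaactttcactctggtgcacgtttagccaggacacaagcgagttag
Dcdc2a promoter, chr13:25055754-25056003, + strand: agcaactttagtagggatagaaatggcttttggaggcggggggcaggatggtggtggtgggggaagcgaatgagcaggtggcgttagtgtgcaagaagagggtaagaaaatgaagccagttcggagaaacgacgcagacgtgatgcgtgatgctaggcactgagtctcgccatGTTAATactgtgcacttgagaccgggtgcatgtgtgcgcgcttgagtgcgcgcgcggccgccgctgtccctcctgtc
Cys1 promoter, chr12:24681796-24682045, - strand: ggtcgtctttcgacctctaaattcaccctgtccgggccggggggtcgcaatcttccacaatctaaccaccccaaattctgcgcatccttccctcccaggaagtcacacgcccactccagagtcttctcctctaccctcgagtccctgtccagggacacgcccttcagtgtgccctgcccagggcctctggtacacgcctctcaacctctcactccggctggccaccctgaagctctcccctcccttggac
A match of letters is a description and not a bound site. An absent match says only that these letters are not in this window.

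The arrays differed in brightness, with a 75th percentile of signal from 285 to 488 and 52.0% to 64.6% of probes well above background, and no spot was saturated. Each signal is therefore given as a multiple of its own array's 75th percentile, which allows comparison of 1 gene between arrays and not of 1 gene with another. Both Albumin-derived tumours and 1 tumour with CLC (replicate 1) lay on slide 1, and the remaining 3 tumours on slide 2, so slide and origin cannot be told apart between the groups without CLC except through the tumours with CLC. The hepatocyte marker Alb was well above background on all 6 arrays, the duct keratin Krt19 on 5 and Epcam on 4. Of the 10 genes, 9 were well above background on all 6 arrays. The exception was Sctr, detected on 3 arrays, which entered the fit only through the group with CLC, where it is high. Its fitted differences are therefore not given here, only a lower bound, and the counts below other than those past the adjusted threshold cover the other 9 genes; the shares of all features beside them include features that entered through 1 group in the same way.

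**Figure D1:**
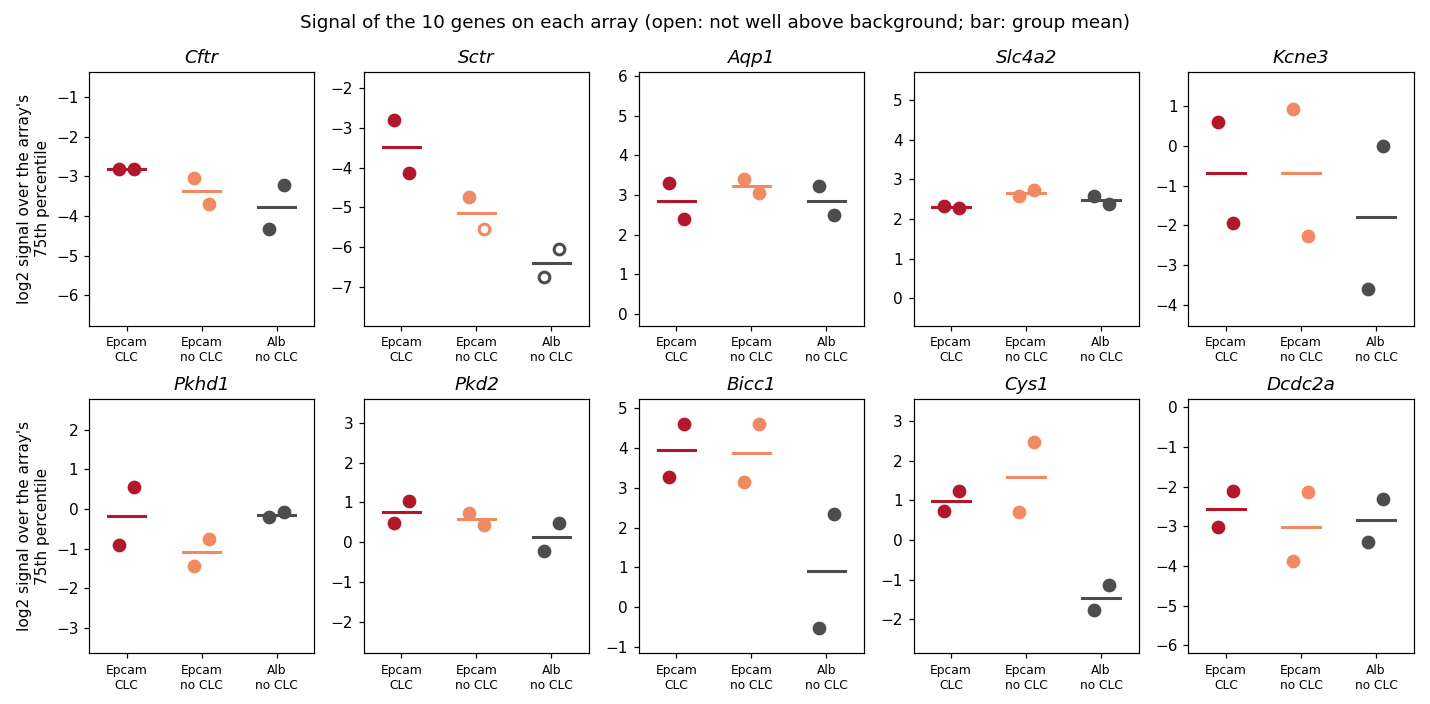
Log2 signal of each gene relative to the array's 75th percentile, 1 point per tumour, with open points where the probe was not well above background and bars at group means. Every panel spans the same number of log2 units, and levels are not comparable between panels. Cys1 and Bicc1 lie higher on all 4 Epcam-derived arrays than on both Albumin-derived arrays, Sctr was well above background on 3 arrays, and Slc4a2 is nearly flat.

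Set against Epcam-derived tumours without CLC, tumours with CLC had more signal for the chloride channel Cftr and less for the exchanger Slc4a2, with no overlap between groups for these genes. The log2 differences were 0.56 ± 0.45 for Cftr and -0.35 ± 0.25 for Slc4a2 (SE of limma's fit, n = 2 per group). Bicc1 and Kcne3 had nearly equal means in both groups. None of the 10 genes passed limma's threshold of 0.05 after Benjamini-Hochberg adjustment over all features (adjusted p of 0.999 or above), where 0% of all features did. Before adjustment 0 of 9 were under 0.05, against 3.48% of all features. The count of 2 of 9 genes without overlap, 1 higher and 1 lower, stands beside 30.1% of all features, 10.3% higher and 19.8% lower.

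Between tumours without CLC, Epcam-derived tumours had 8.26-fold the Cys1 signal and 7.79-fold the Bicc1 signal of Albumin-derived tumours, while the fibrocystin gene Pkhd1 was 1.93-fold lower. The log2 differences were 3.05 ± 0.62 for Cys1, 2.96 ± 1.06 for Bicc1 and -0.95 ± 0.53 for Pkhd1 (SE, n = 2 per group). None of the 10 passed limma's threshold over all features (adjusted p from 0.103 to 0.916), where 0.244% of all features did, 0.0584% higher and 0.186% lower. Before adjustment 2 of 9, Cys1 and Bicc1, were under 0.05, against 20% of all features. There was no overlap for 3 of 9 genes, Bicc1 and Cys1 higher and Pkhd1 lower, beside 55.2% of all features, 30.4% higher and 24.8% lower. In the same comparison 9 of 21 measured bile duct markers were higher and 12 lower, with a median log2 difference of -0.39.

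Epcam-derived tumours with CLC, set against the Albumin-derived tumours, again had more Bicc1 and Cys1 signal, at 8.20-fold and 5.41-fold. Sctr signal was at least 2.26-fold higher under the main processing. The log2 differences were 3.04 ± 1.06 for Bicc1, 2.44 ± 0.62 for Cys1 and 0.97 ± 0.45 for Cftr (SE, n = 2 per group). None passed limma's threshold over all features (adjusted p of 0.119 for Sctr and from 0.176 to 0.997 for the other 9), where 0.062% of all features did, 0.0109% higher and 0.0511% lower. Before adjustment 2 of 9, Cys1 and Bicc1, were under 0.05, against 16% of all features. There was no overlap for 5 of 9 genes, with Cftr, Pkd2, Bicc1 and Cys1 higher and Slc4a2 lower, beside 50.8% of all features, 23.8% higher and 27% lower. The 3 comparisons share tumours pairwise, so their values are not separate results. An exact permutation of 2 tumours against 2 allows no p below 2 of 6 arrangements, and none was used.

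**Figure D2:**
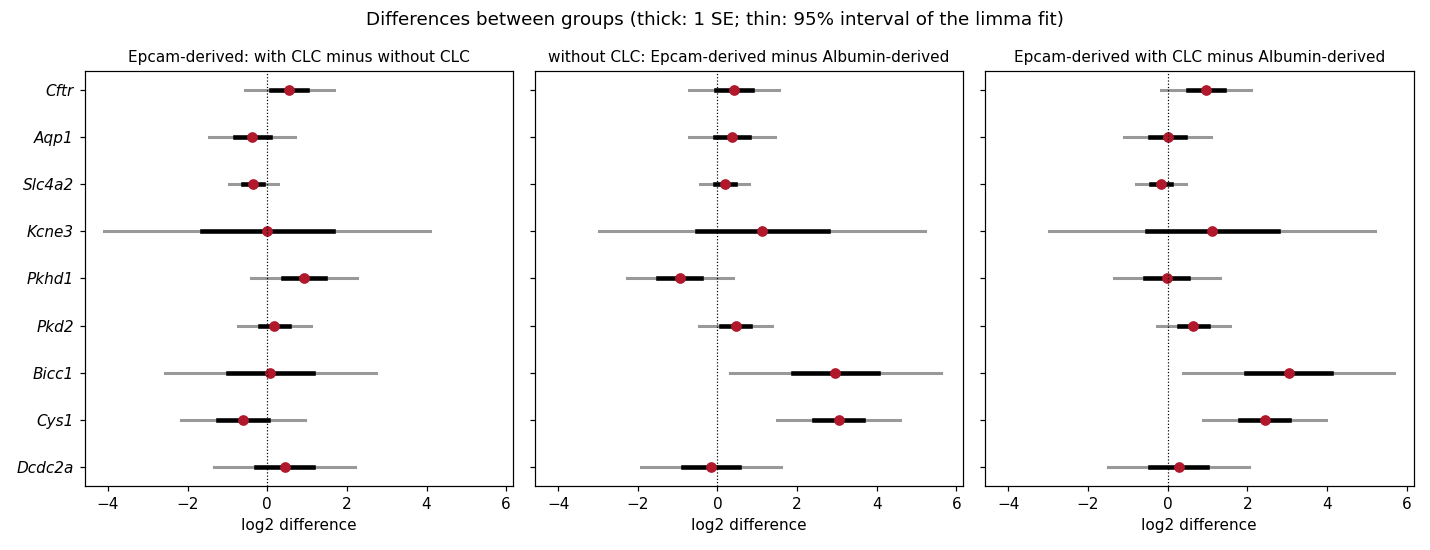
Log2 difference in the 3 comparisons of the 9 genes well above background on all arrays, with thick lines for 1 SE and thin lines for the 95% interval of limma's fit (n = 2 tumours per group). Intervals before adjustment lie above 0 for Cys1 and Bicc1 in both comparisons with Albumin-derived tumours. No gene passed after adjustment.

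Sctr encodes the secretin receptor, the entry point of hormone-driven duct secretion, which in rodent liver is largely restricted to cholangiocytes. Its signal was 0.143 and 0.0568 times the array's 75th percentile in the tumours with CLC, 0.0374 and 0.0216 in the Epcam-derived ones without it, and 0.00922 and 0.0152 in the Albumin-derived ones. Both tumours with CLC were above all others. The second of the Epcam-derived tumours without CLC and both Albumin-derived tumours were not well above background, so these 3 arrays have no order among them. The fold of at least 2.26 over Albumin-derived tumours sets the mean with CLC against a floor. That floor is the lowest signal called well above background on the dim arrays. No such fold exists for the Epcam-derived tumours without CLC, whose mean lay under it. Limma's adjusted p of 0.119 belongs to the fitted difference and not to this bound. It is no independent support, since Sctr entered the fit only through the group with CLC. The bound was computed under the main processing alone. With normexp background correction the fitted log2 difference of tumours with CLC from Albumin-derived tumours was only 0.21. On slide 2 the tumour with CLC lay above both tumours without it, and on slide 1 above both Albumin-derived tumours. The duct keratin Krt19 stood beside it at 0.331 and 0.388 with CLC, 0.0541 and 0.0684 in the Epcam-derived ones without it, and 0.0325 and 0.0874 in the Albumin-derived ones. Epcam did not follow the same order, since its highest value, 0.101, was on an Albumin-derived array.

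Cftr encodes the cyclic AMP-regulated chloride channel on the duct side of the cholangiocyte. Its signal was 0.143 and 0.142 in the tumours with CLC, 0.122 and 0.0769 in the Epcam-derived ones without it, and 0.0497 and 0.107 in the Albumin-derived ones. The tumours with CLC were highest, and the lower pair of groups overlapped. Tumours with CLC had 1.47-fold the signal of Epcam-derived tumours without it (95% interval of the log2 difference from -0.57 to 1.68) and 1.96-fold that of Albumin-derived tumours (-0.16 to 2.09). The difference between the groups without CLC, 0.41 ± 0.45, turned to -0.24 with normexp background correction and to -0.14 without Albumin-derived replicate 1. The log2 difference of tumours with CLC from Albumin-derived tumours was 0.97 in the main fit and 0.11 with normexp. Without Albumin-derived replicate 1 it was 0.41, and without replicate 2 it was 1.52. The other Cftr probe was not well above background on any array, so the gene rests on 1 dim probe.

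Kcne3 encodes a small partner subunit of the potassium channel Kcnq1, which in gut and airway epithelium keeps the driving force for chloride secretion. It was the most uneven of the 10 genes, at 1.51 and 0.258 in the tumours with CLC, 1.90 and 0.206 in the Epcam-derived ones without it, and 0.0827 and 1.00 in the Albumin-derived ones. Each group held 1 bright and 1 dim tumour, so the groups overlapped fully. The difference with against without CLC was 0.00 ± 1.64, and its interval of -4.10 to 4.09 leaves a wide range of sizes unmeasured. Erythroid marker genes had a summed signal of 536 and 71.5 in the tumours with CLC, 590 and 67.8 in the Epcam-derived ones without it, and 192 and 126 in the Albumin-derived ones, bright in the same tumours as Kcne3 in both Epcam-derived groups and not in the Albumin-derived group. By the median log2 signal of the erythroid markers, the Albumin-derived tumours stood at -0.20 and 0.03, in the same order as Kcne3. The part of these markers in the Kcne3 values was not tested.

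Slc4a2 encodes the chloride and bicarbonate exchanger, and was the steadiest of the 10. Its signal was 5.05 and 4.83 in the tumours with CLC, 5.93 and 6.67 in the Epcam-derived ones without it, and 5.97 and 5.16 in the Albumin-derived ones. The tumours with CLC were the lowest pair, below every tumour of both other groups, while those other groups overlapped. The sizes were small, a 1.27-fold lower signal with CLC than without among Epcam-derived tumours and 1.12-fold lower than in Albumin-derived tumours. The 95% interval of the first difference ran from -0.97 to 0.27. With the authors' own scaling the difference from Albumin-derived tumours turned to 0.15. That scaling put the median of all features at 0.31, against -0.01 here, so Slc4a2 stayed below it.

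Aqp1 encodes the water channel of cholangiocytes, and is also abundant in endothelium and red cells. Its signal was 9.87 and 5.27 in the tumours with CLC, 10.6 and 8.26 in the Epcam-derived ones without it, and 9.36 and 5.60 in the Albumin-derived ones. The groups overlapped, and the means of tumours with CLC and Albumin-derived tumours were within 0.00 ± 0.43 on the log2 scale. The summed signal of 12 endothelial markers was 67.0 and 49.7 with CLC, 78.9 and 45.6 in the Epcam-derived ones without it, and 43.9 and 34.3 in the Albumin-derived ones. Aqp1, this sum and the erythroid sum given above were all higher in replicate 1 of each group. The list medians of log2 signal did not all follow. The endothelial median was lower in replicate 1 of the Epcam-derived tumours without CLC (0.87 against 0.98) and of the Albumin-derived tumours (0.55 against 0.78). The erythroid median was lower in replicate 1 of the Albumin-derived tumours (-0.20 against 0.03). All other medians of both lists were higher in replicate 1. The part of these markers in the Aqp1 values was not tested.

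Pkd2 encodes polycystin-2, a cation channel of the primary cilium and the endoplasmic reticulum, mutated in human dominant polycystic kidney disease. Its signal was 1.40 and 2.06 in the tumours with CLC, 1.67 and 1.35 in the Epcam-derived ones without it, and 0.851 and 1.40 in the Albumin-derived ones. Neighbouring groups in this order overlapped. The tumours with CLC and the Albumin-derived tumours did not, at 0.64 ± 0.37, but the nearest of them were only 0.49 and 0.48 on the log2 scale. A second RefSeq transcript probe gave 0.51, 0.35 and 0.86 in the 3 comparisons, against 0.18, 0.46 and 0.64 for the brighter probe. The last probe, for a predicted transcript, was well above background on 2 arrays and is not used.

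Pkhd1 encodes fibrocystin, a large ciliary membrane protein whose loss in humans gives recessive polycystic kidney disease with malformed bile ducts. Its signal was 0.536 and 1.48 in the tumours with CLC, 0.371 and 0.590 in the Epcam-derived ones without it, and 0.871 and 0.940 in the Albumin-derived ones. The Epcam-derived tumours without CLC were below both Albumin-derived tumours, and the tumours with CLC lay on either side of them, with the highest single value of the series. The difference with against without CLC was 0.93 ± 0.53 and the groups overlapped; it was 1.66 within slide 2 and 0.20 without replicate 2 of the tumours with CLC. The deficit of Epcam-derived against Albumin-derived tumours without CLC had an interval of -2.28 to 0.38.

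Cys1 encodes cystin, a small lipid-anchored protein of the ciliary membrane whose loss causes the cystic kidneys of the cpk mouse. Its signal was 1.66 and 2.35 in the tumours with CLC, 1.64 and 5.55 in the Epcam-derived ones without it, and 0.295 and 0.454 in the Albumin-derived ones. All 4 Epcam-derived tumours lay above both Albumin-derived tumours, and the 2 Epcam-derived groups overlapped. Among the 9 genes detected on all arrays, 2 (Bicc1 and Cys1) were higher on all 4 Epcam-derived arrays, beside 17.6% of all features, and none was lower on all 4, beside 18.2% (35.8% in either direction). The Cys1 difference between the groups without CLC, 3.05 ± 0.62 (95% interval 1.50 to 4.59; adjusted p = 0.103 by limma), was 2.54 with slide as a block, which rests on the tumours with CLC, and between 2.17 and 3.92 with 1 array left out. Against Albumin-derived tumours the tumours with CLC differed by 2.44 ± 0.62, and by 2.19 within slide 1. The labels give tamoxifen and the DDC diet for the Epcam-AID mice and an age for the Alb-AID mice, so origin and these conditions cannot be told apart.

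Bicc1 encodes an RNA-binding protein that keeps Pkd2 messenger RNA in use in mouse kidney and is mutated in the cystic jcpk and bpk mice. Its signal was 9.74 and 24.2 in the tumours with CLC, 8.79 and 24.3 in the Epcam-derived ones without it, and 0.693 and 5.07 in the Albumin-derived ones. Both Epcam-derived groups held nearly the same pair of values, each above both Albumin-derived tumours. The Albumin-derived tumours themselves lay far apart, at -0.53 and 2.34 on the log2 scale. Against Albumin-derived tumours, Epcam-derived tumours without CLC differed by 2.96 ± 1.06 (adjusted p = 0.218 by limma) and tumours with CLC by 3.04 ± 1.06 (0.266). Without Albumin-derived replicate 1 these differences were 1.53 and 1.60, without replicate 2 they were 4.40 and 4.47, and with slide as a block they were 1.65 and 2.38. Between tumours with and without CLC the difference was 0.07 ± 1.06, with an interval of -2.58 to 2.72. Pkd2, whose messenger Bicc1 is known to bind, differed by 0.46 ± 0.37 and 0.64 ± 0.37 in the same 2 comparisons with Albumin-derived tumours.

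Dcdc2a encodes a microtubule-binding doublecortin protein of the cilium, whose human counterpart is mutated in neonatal sclerosing cholangitis. Its signal was 0.122 and 0.231 in the tumours with CLC, 0.0680 and 0.226 in the Epcam-derived ones without it, and 0.0954 and 0.203 in the Albumin-derived ones. Every group held 1 lower and 1 higher tumour over a similar range, and all 3 groups overlapped. The differences were 0.44 ± 0.71 with against without CLC, -0.16 ± 0.71 between the groups without CLC, and 0.27 ± 0.71 for tumours with CLC against Albumin-derived. A dimmer second probe was well above background on 3 arrays and gave 1.17, -0.53 and 0.64. Its promoter and that of Pkhd1 are the ones printed above with the HNF1 half-site.

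The spread between tumours of 1 group limited these comparisons. The within-group SD of log2 signal was above the median of all features, 0.349, for 8 of the 9 genes detected on all arrays. It was highest for Kcne3 at 2.23, which is at or above 99.5% of all features, and for Bicc1 at 1.42 (97.1%), followed by Dcdc2a at 0.915 and Cys1 at 0.787. Slc4a2 had the lowest, 0.113, which only 5.20% of features matched or undercut. Cys1 and Bicc1 had similar mean differences from Albumin-derived tumours with different within-group spreads.

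**Figure D3:**
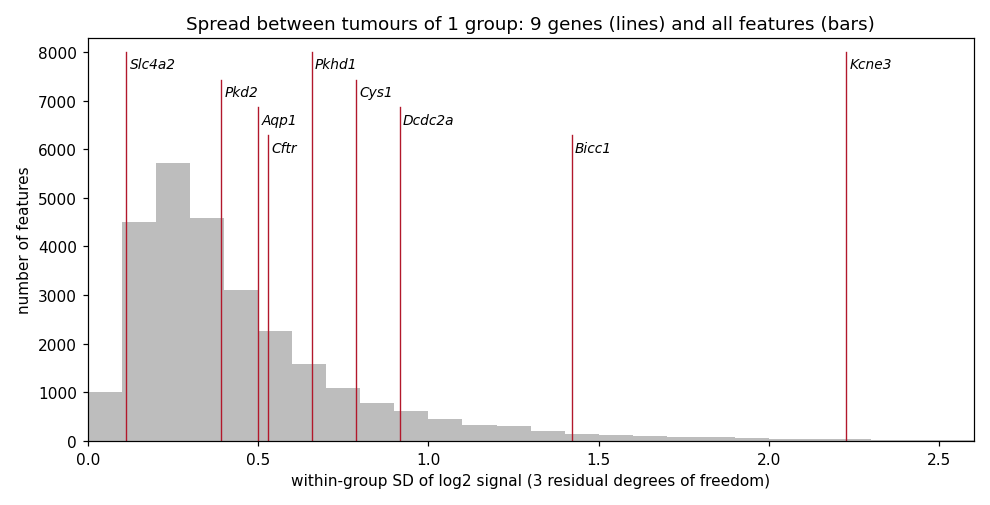
Within-group SD of log2 signal for all features (grey bars, number of features per bin) and for the 9 genes detected on all arrays (red lines, whose heights only separate the names). Slc4a2 sits at the left end, Bicc1 and Kcne3 far to the right.

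Bicc1 had the widest variation over the 6 arrays among the 9 genes detected on all of them, and features were ranked by how closely they followed it, as the root mean square difference of log2 values after each was centred on its own mean over the 6 arrays. The closest 5 named genes were Misp, Teddm1a, Epb41l1, Slc25a24 and Elovl7, at 0.446, 0.457, 0.500, 0.557 and 0.568 log2 units. Misp was well above background on 5 arrays and Teddm1a on 4, so their distances rest partly on background values, while the other 3 were detected on all 6. Misp encodes an actin-bundling protein of mitosis, Slc25a24 a mitochondrial carrier of ATP and phosphate, and Elovl7 a fatty acid elongase. Of the other 8 genes detected on all arrays Cys1 was the nearest at 0.758, a distance that 0.120% of all features matched or undercut, while the other 7 lay between 1.42 and 1.97.

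The rest of the secretory pathway was read from 38 genes for duct fluid and bicarbonate transport, of which 32 were measured and 0 passed limma's threshold in any comparison. With against without CLC, 21 of 32 were higher and the median log2 difference was 0.17, beside -0.06 over all features. That median was -0.01 without replicate 2 of the tumours with CLC, 0.09 without replicate 2 of those without CLC and 0.31 without replicate 1 of those without CLC. The leading genes were Ezr, which encodes ezrin, the linker of apical membrane proteins to actin, at 0.78 ± 0.37, and Ano1, a calcium-activated chloride channel, at 1.03 ± 0.60 (SE, n = 2; adjusted p = 0.999 each). Against Albumin-derived tumours, Ezr differed by 1.78 ± 0.37 in Epcam-derived tumours without CLC and by 2.56 ± 0.37 in those with CLC (adjusted p = 0.105 and 0.0892). Sstr2, the somatostatin receptor through which duct secretion is restrained, differed by -2.55 ± 0.53 and -2.60 ± 0.53 in the same order (0.104 and 0.128). Sstr2 was well above background on 5 arrays and not in replicate 1 of the tumours with CLC, so the second difference rests partly on a background value. The medians against Albumin-derived tumours were 0.07 without CLC, with 19 of 32 higher, and 0.25 with CLC, with 20 of 32 higher. With 1 array left out they ranged from -0.03 (without Epcam-derived replicate 1) to 0.13 (without Albumin-derived replicate 1) and from 0.13 (without Albumin-derived replicate 2) to 0.25.

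Of 33 genes for other polycystic and nephronophthisis proteins, 30 were measured and 0 passed. With against without CLC, 9 of 30 were higher, with a median of -0.09; the leading genes were the ciliary transition zone genes Mks1, at -1.31 ± 0.32, and Rpgrip1l, at -0.64 ± 0.39 (SE, n = 2; limma adjusted p = 0.999 each). Against Albumin-derived tumours the medians were -0.06 in Epcam-derived tumours without CLC and -0.13 in those with CLC. With 1 array left out, the 3 medians ranged from -0.17 to -0.01 (without replicates 2 and 1 of the tumours with CLC), from -0.27 to 0.10 (without replicates 2 and 1 of the Epcam-derived tumours without CLC) and from -0.29 to -0.11 (without Albumin-derived replicates 1 and 2). Dnajb11, a chaperone of the endoplasmic reticulum needed for polycystin maturation, differed by -1.69 ± 0.27 and -1.84 ± 0.27 in that order (adjusted p = 0.0774 and 0.0903). Glis2, a transcription factor mutated in a human nephronophthisis, differed by 4.62 ± 1.13 in Epcam-derived tumours without CLC (0.135), and Ganab, a sugar-trimming enzyme of the same compartment as Dnajb11, by -0.72 ± 0.25 in those with CLC (0.259).

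All 39 genes of the ciliary transport machinery were measured and 0 passed. Their median log2 differences were -0.18 with against without CLC, -0.11 for Epcam-derived against Albumin-derived tumours without CLC, and -0.27 for tumours with CLC against Albumin-derived tumours, beside -0.06, 0.06 and -0.01. In the same order, 11, 15 and 9 of 39 were higher, against 43.1%, 53.5% and 49.3% of all features. With 1 array left out the medians ranged from -0.30 to 0.04 (without replicates 1 and 2 of the Epcam-derived tumours without CLC), from -0.28 to -0.02 (without replicates 2 and 1 of the same group) and from -0.32 to -0.18 (without replicates 2 and 1 of the tumours with CLC). Ift88 and Traf3ip1, both of the intraflagellar transport complex B, differed by -0.53 ± 0.24 and -0.61 ± 0.30 with against without CLC (SE, n = 2; limma adjusted p = 0.999 each). Ift20, a subunit that also sits at the Golgi, differed by -0.88 ± 0.24 and -0.72 ± 0.24 from Albumin-derived tumours in tumours without and with CLC (0.151 and 0.243). Tulp3, which brings receptors into cilia, went the other way at 1.08 ± 0.36 and 1.81 ± 0.36 (0.198 and 0.123).

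**Figure D4:**
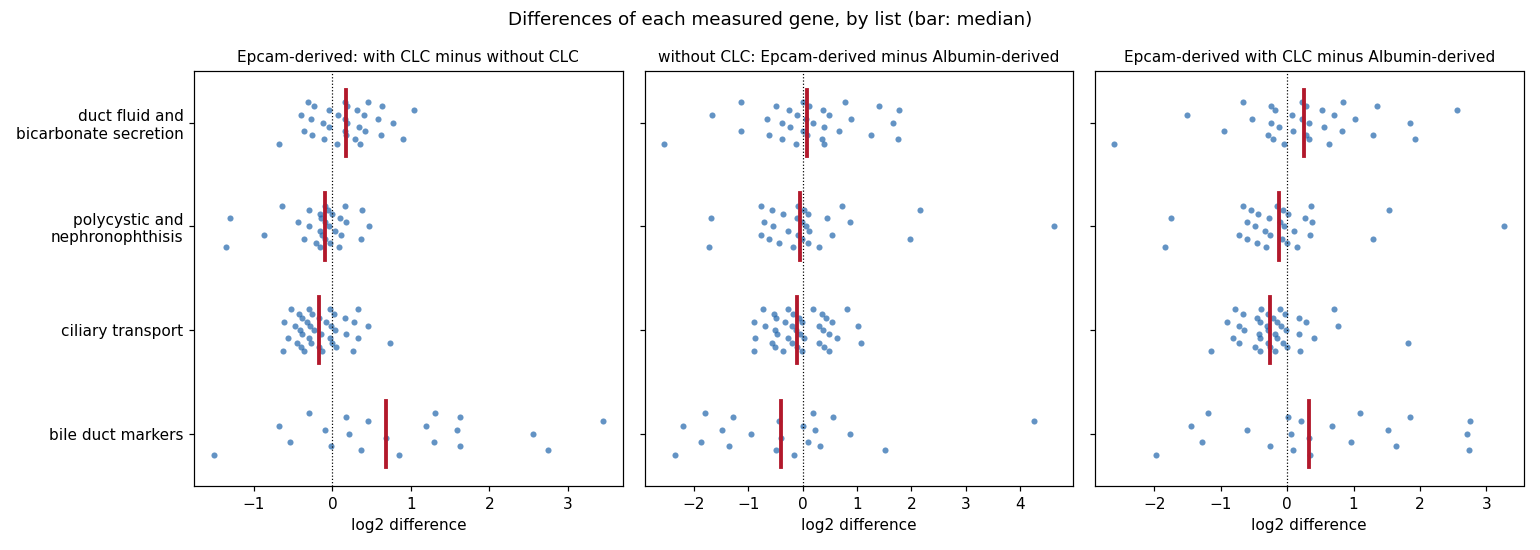
Log2 differences of each measured gene (points) and list medians (red bars) for 3 lists of related genes and bile duct markers in the 3 comparisons. The cilia lists have medians from -0.27 to -0.06, and the bile duct markers have their highest median, 0.68, with against without CLC.

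Markers of cell types that could carry these genes were read beside them. Of 23 bile duct markers 21 were measured and 0 passed; with against without CLC 15 of 21 were higher (median 0.68), between the groups without CLC 9 of 21 (median -0.39), and with CLC against Albumin-derived tumours 15 of 21 (median 0.33). With against without CLC, 10 of these markers did not overlap, all higher, beside 30.1% of all features, 10.3% higher and 19.8% lower. Between the groups without CLC 10 did not overlap, 2 higher and 8 lower in Epcam-derived tumours, beside 55.2%, 30.4% higher and 24.8% lower. With CLC against Albumin-derived tumours 12 did not overlap, 8 higher and 4 lower, beside 50.8%, 23.8% higher and 27% lower. With 1 array left out the 3 medians ranged from 0.51 to 0.81, from -0.70 (without Epcam-derived replicate 1) to 0.19 (without Albumin-derived replicate 2), and from 0.12 (without replicate 1 of the tumours with CLC) to 0.68 (without Albumin-derived replicate 2). Their summed signal was 391 to 404 with CLC, 290 to 356 in Epcam-derived tumours without CLC and 281 to 372 in Albumin-derived tumours. All 16 hepatocyte markers were measured, with sums of 2230 to 3368, 2510 to 2676 and 3453 to 4344 in the same order of groups. Of 14 markers of multiciliated cells 7 were measured, with sums of 32.6 to 36.1, 38.1 to 40.9 and 16.1 to 22.2; their defining factor Foxj1 was well above background on 4 arrays, and Dnah5 and Tekt1 on none. Sums for 2 of 6 mesothelial markers were 0.186 to 1.03, 0.0662 to 0.422 and 0.180 to 0.230. Stomach and gallbladder type markers (9 of 12 measured) had sums of 5.15 to 6.87, 17.2 to 58.8 and 58.0 to 104. Counted by gene, 6 of these 9 were higher in Epcam-derived tumours without CLC than in Albumin-derived tumours (median 0.36). In tumours with CLC 4 of 9 were higher than in Albumin-derived tumours (median -0.004). Pancreas markers (4 of 8) had sums of 17.8 to 22.4, 16.6 to 21.1 and 23.3 to 45.2. Of these lists' genes, 3 were under limma's threshold. The gastrokine Gkn3, detected on all 6 arrays, differed by -3.86 ± 0.25 in Epcam-derived tumours without CLC and -3.72 ± 0.25 in those with CLC (adjusted p = 0.0234 and 0.0340). Agr2, a secretory cell chaperone, was at least 61.9-fold lower in Epcam-derived tumours without CLC, and the amylase Amy2b at least 14.1-fold lower there. Limma's adjusted p, 0.0417 for each, belongs to the fitted differences and not to these bounds. Both entered the fit only through the Albumin-derived tumours, where they are high, and their adjusted p is no independent support. Their part in the results for the 10 genes was not tested.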

How the data were processed

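Per the file headers, the authors' scanner software, Agilent Feature Extraction (11.5.1.1), wrote processed spot intensity with local background subtracted, trends within the array removed and no scaling between arrays. The headers name mm9 for the array design. The authors also deposited a value file of processed intensity, which is the same signal multiplied by a constant for each array (from 1.64 to 2.42), on a linear scale, uncentred, in the same direction; what set the factors stays unknown. Its medians were 73.9, 78.0, 80.0, 74.1, 61.9 and 55.0 for tumours with CLC, Epcam-derived without CLC and Albumin-derived, replicates 1 and 2 each. Marks for each spot (well above background, outlier) are other columns of the deposited files.

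Control and outlier spots were dropped, log2 of the processed signal minus each array's 75th percentile was averaged per probe, and a probe was kept where both arrays of some group had it well above background. Accessions were named through RefSeq (GRCm38.p6); per gene, the brightest passing probe was used. All 6 arrays entered 1 limma fit (limma 3.58.1, R 4.3.3), with two-sided p adjusted by Benjamini-Hochberg over 27412 features. Values after ± are SE from eBayes. The number of arrays limits the precision. The script was tested on simulated data. The 10 genes and the lists were chosen with earlier results of these data known. All 10 genes are named; from the related lists, the 2 genes with the largest absolute t per comparison and every gene past the threshold; from marker lists, defining markers. Normexp used the median spot signal, since the files have no mean signal column. Other alternatives were quantile normalization, median centring, the authors' scaling, other filters on dim probes, averaged probes, slide or replicate as a block, a variance trend, fewer groups in the fit and leaving out each array.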

Additional observations from a re-analysis of the deposited data

How the results depend on the processing

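None of the 10 genes passed limma's adjusted threshold in any comparison under any alternative run, and 13 of 30 gene differences kept their sign in all of them. Over these, limma's adjusted p of Cys1 between the groups without CLC was lowest at 0.0708 and that of Bicc1 at 0.116. With slide as a block they were 0.764 and 0.944, and without a filter on dim probes 0.273 and 0.429. The number of features called with against without CLC was 0 throughout (954 before adjustment). Epcam-derived against Albumin-derived tumours without CLC had 67 called, against 135 with normexp, 102 with quantile normalization, 106 with median centring, 129 with the authors' scaling, 1 without a filter on dim probes, 32 with a filter on all 6 arrays, 110 with a gene's probes averaged, 16 with only these 2 groups fitted, 0 with slide as a block and 0 to 16 with 1 array left out. Tumours with CLC against Albumin-derived tumours had 17 called, against 66 with normexp, 66 with quantile normalization, 35 with median centring, 39 with a variance trend, 1 without the filter, and 0 with only these 2 groups, when blocked by slide, within slide 1 or with any array left out.

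Replicate numbers did not pair the tumours (correlations of deviations 0.232, 0.0619 and -0.159), and a replicate block left 0, 11 and 0 calls with against without CLC, for Epcam-derived against Albumin-derived without CLC, and for CLC against Albumin-derived.

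Signs turned as follows. Between the groups without CLC, Cftr was -0.24 and Sctr -0.33 with normexp, Dcdc2a 0.15 with the authors' scaling and Pkd2 -0.10 with slide as a block. With CLC against Albumin-derived, Aqp1 was 0.0058 with normexp, 0.079 with quantile normalization, 0.32 with the authors' scaling and 0.45 when blocked by slide or taken on slide 1 alone, where Dcdc2a was -0.19. In that comparison the authors' scaling gave 0.15 for Slc4a2 and 0.30 for Pkhd1. Kcne3 with against without CLC was 0.022 with median centring and 0.0024 with the authors' scaling. That scaling put the median of all features at 0.37 and 0.31 in the comparisons with Albumin-derived tumours; normexp put it at -0.16 and -0.12, and no filter at -0.18 and -0.14. The cause of the sign changes was not tested.

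With 1 array left out, the range with against without CLC was -0.83 to 0.079 for Aqp1, -1.61 to 1.60 for Kcne3, -0.10 to 0.46 for Pkd2, -0.66 to 0.81 for Bicc1, -1.49 to 0.27 for Cys1 and -0.43 to 1.30 for Dcdc2a. Between the groups without CLC it was -0.14 to 0.96 for Cftr, -0.0013 to 0.74 for Aqp1, -0.68 to 2.92 for Kcne3 and -1.03 to 0.70 for Dcdc2a. With CLC against Albumin-derived it was -0.46 to 0.45 for Aqp1, -0.68 to 2.92 for Kcne3, -0.75 to 0.71 for Pkhd1 and -0.27 to 0.82 for Dcdc2a. A lone tumour was then assumed to vary like the other groups. Over all alternatives, the list medians ran as follows in the same 3 comparisons. Duct secretion genes had -0.01 to 0.31, -0.06 to 0.38 and 0.05 to 0.57. The polycystic list had -0.17 to -0.01, -0.27 to 0.26 and -0.29 to 0.19. Ciliary transport had -0.30 to 0.04, -0.28 to 0.20 and -0.33 to 0.05. Bile duct markers had 0.30 to 0.85, -0.70 to 0.19 and 0.12 to 0.68. Sctr has no value under the filter on all 6 arrays, and no slide holds both groups without CLC. Signal near background limits Sctr, Cftr and Dcdc2a, and 2 arrays a group limit every value.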
